A study of Arabidopsis thaliana with 9 samples.

Results

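The first long day was examined here as a passing state of the Arabidopsis thaliana shoot apex, by asking which loci stood higher or lower after 1 long day than both before it and 2 days later. Read counts of each library were summed per locus, and the 3 libraries taken after 1 long day were set against the mean of the 6 libraries taken before induction and after 3 long days, with the library preparation as a covariate. Of the 23338 loci in the count table, 9300 had enough reads to be tested. All 9 libraries of the series entered this comparison.

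The tissue was laser-dissected shoot apical meristem of the accession Col-0. All plants were raised in short days (8 h light, 16 h dark). LD0 apices were taken there, and LD1 and LD3 apices after a transfer to long days (16 h light, 8 h dark) for 1 day or 3 days. The labels name no mutant, transgene or chemical. Each group had 3 libraries, A, B and C. For A and B the labels give whole-transcriptome shotgun as the preparation, and for C a ready-to-run library. RNA had been amplified before sequencing. How many plants went into a library, and whether replicates came from separate pools, is not stated in the labels. The p-values therefore rest on the library-to-library spread alone, and that spread may be technical.

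The shoot apical meristem is the dome of dividing cells from which leaves arise and, once the plant is induced to flower, floral buds. In leaves, a long day lets CONSTANS protein build up and turn on FT, whose protein moves through the phloem to the meristem. There it acts with FD on genes such as SOC1, a MADS-box factor that starts the change of the meristem. A locus that follows this path would climb and stay up, whereas a passing answer to the lengthened light period would be seen on the first long day and be gone on the third.

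Depth ranged from 97153 reads (LD0 B) to 11145220 reads (LD3 C), and the limit of 3 reads corresponded to 28.5 and 0.337 counts per 1000000 reads (CPM, scaled by TMM) in these libraries. LD1 A had 124360 reads, LD1 B 711363 and LD1 C 714559. LD1 C stood apart. It had reads at 9909 loci where LD1 B, with nearly the same total, had reads at 15315. Its TMM factor was 0.657, the lowest of the 9, and an 18S ribosomal RNA locus, AT3G41768, held 6928 of its reads against 27 in LD1 A and 40 in LD1 B. Transcripts of the meristem itself were present at each time point. CLV3, the stem cell peptide, had 408 ± 151 CPM in LD0, 377 ± 159 in LD1 and 261 ± 74.6 in LD3 (mean ± SD, n = 3), and PDF1, which marks the outer cell layer, had reads in all 9 libraries. Markers of root, trichome and stomata were near 0, each list making up at most 0.0127% of the reads of any library. Seed markers were not. In LD0 the libraries A, B and C gave them 6.77%, 1.53% and 6.12% of their reads, those of LD1 0.555%, 2.22% and 0.0970%, and those of LD3 0.332%, 0.284% and 0.0698%. The seed share was thus higher in LD0 than in LD3 in every letter, and its part in differences from LD0 was not tested. In bulk samples such as these, fewer cells of a type and less RNA per cell cannot be told apart.

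No locus passed an adjusted p of 0.05 in the comparison of LD1 with the mean of LD0 and LD3. By edgeR's quasi-likelihood test with Benjamini-Hochberg adjustment, 0 of 9300 loci were called higher (0%) and 0 lower (0%), and the smallest adjusted p was 0.980. At an unadjusted p under 0.05, 256 loci were higher on LD1 (2.75% of those tested) and 164 were lower (1.76%). Together they were 420 loci, or 4.52%, where 465 would fall under this threshold if no locus differed. The plot of p-values over all tested loci shows the same, with no crowding near 0.

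Other tools gave small numbers of calls on the same libraries. DESeq2 called 4 loci higher and 2 lower, and limma-voom called 29 higher and 0 lower. Called by both were 3 loci, AT5G46190, AT2G01480 and DIN10, all higher on LD1. In all 29 loci that limma-voom called, LD1 C had the highest CPM of the 9 libraries, and in 3 of the 4 that DESeq2 called higher. The fourth, AT1G74020, a strictosidine synthase homologue, had 132 reads in LD1 B and 0 in LD1 A and C. It also had 19 reads in LD3 B and 335 in LD3 C, and none in LD3 A or any LD0 library. DESeq2 called STP4 and AT1G59870, an ABC transporter, lower. AT1G59870 had no read on LD1, but LD3 A had none either and 747 of its reads were in LD3 B.

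**Figure D1:**
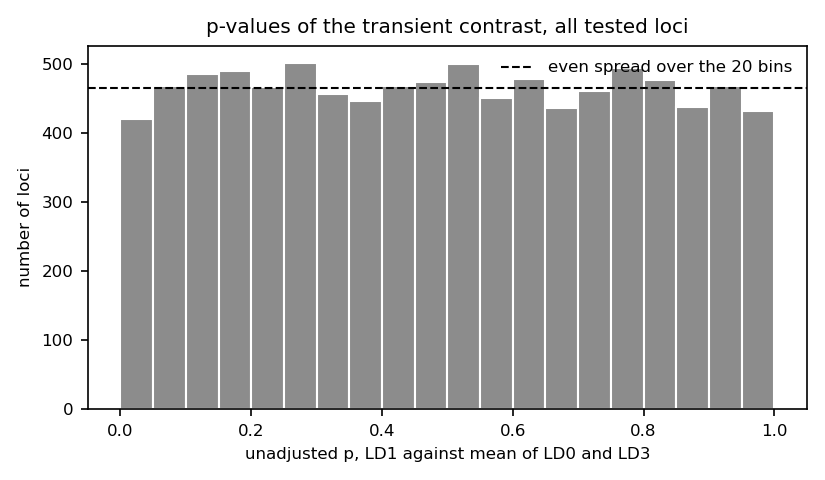
Number of loci (vertical axis) in 20 bins of the unadjusted p-value (horizontal axis) for LD1 against the mean of LD0 and LD3, over the 9300 tested loci. The lowest bin holds 420 loci, below the 465 per bin of an even spread (dashed line).

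The resolution of the comparison was coarse. The common biological coefficient of variation was 0.898, and the median standard error of a log2 change was 1.09, so that a 2-fold change was smaller than the standard error of the median locus. Log2 changes were centred near 0, with a median of -0.03 and quartiles of -0.76 and 0.67. Of the 9300 loci, 4554 were positive (49.0%), the share against which counts of positive list members are to be read. At an unadjusted p under 0.05, LD1 stood apart at fewer loci than LD0 or LD3. Set against the mean of the other 2 groups in the same fit, LD0 gave 791 loci at an unadjusted p under 0.05 (8.51%) and 2 past the adjusted threshold (0.0215%), and LD3 gave 583 (6.27%) and 1 (0.0108%). These 3 comparisons share all their libraries, and the difference between their counts was not tested.

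A peak or a dip needs a difference on both sides of LD1. At an unadjusted p under 0.05, LD1 was above LD0 at 305 loci (3.28%) and below it at 287 (3.09%), and above LD3 at 233 (2.51%) and below it at 146 (1.57%). Both sides were passed in the same direction by 26 loci as peaks (0.28%) and by 58 as dips (0.624%). Since the LD1 libraries serve in both differences, an unusual LD1 library moves both. Counted by library with no test, all 3 LD1 values lay above all 6 others at 57 loci (0.613%) and below them at 126 (1.35%). For comparison, the LD0 libraries lay above all others at 125 loci (1.34%) and below at 186 (2%), and the LD3 libraries above at 139 (1.49%) and below at 24 (0.258%). By this count LD3 and not LD1 had the fewest loci in all.

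The loci named next as peaks and dips are those with the smallest p among loci whose LD1 libraries did not overlap the rest, and those with the smallest p on both sides. They were picked by this comparison, so their p-values describe the ranking and support nothing further. Each had an edgeR adjusted p of 0.980 in the comparison of LD1 with the mean of the other groups. A log2 change is the fitted difference of LD1 from that mean, with its standard error.

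AT5G46190, which encodes an RNA-binding protein with KH domains, had 85.6, 124 and 2725 CPM in LD1 A, B and C. In LD0 A, B and C it had 8.97, 0 and 9.25 CPM, and in LD3 46.8, 43.6 and 9.67 CPM. All LD1 libraries were above all others, and LD1 C was far above the other LD1 libraries. The log2 change was 4.92 (SE 1.15, unadjusted p = 0.00122). Against LD0 alone it was 6.66 and against LD3 alone 3.18. In pooled reads the share of AT5G46190 on LD1 was 73.9 times that in the other groups, with an exact 95% interval of 63.0 to 87.2 that covers counting error only and in which LD1 C weighs most.

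MGT9, a magnesium transporter, had 72.5, 137 and 334 CPM in LD1 A, B and C. It had 8.97, 9.50 and 11.1 CPM in the LD0 libraries and 54.6, 24.9 and 11.7 in those of LD3. The LD0 libraries were close together and low, and LD3 A came nearest to the LD1 libraries. Its log2 change was 3.35 (SE 0.80, unadjusted p = 0.00145). Its unadjusted p stayed under 0.05 in all 19 alternative fits that tested it.

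AT2G01480, a member of the O-fucosyltransferase family, which adds fucose to proteins or glycans, had 39.5, 62.0 and 125 CPM in LD1 A, B and C. It had no reads in LD0 A and B and 2.47 CPM in LD0 C, and 15.6, 1.39 and 1.80 CPM in LD3 A, B and C. The 15.6 CPM of LD3 A are 2 reads. The log2 change was 4.88 (SE 1.15, unadjusted p = 0.00131).

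AT1G63840, a RING/U-box protein of the kind found in ubiquitin ligases, had 5, 46 and 24 reads in LD1 A, B and C, 0 in each LD0 library and 1, 34 and 6 in the LD3 libraries. Mean levels were 54.5 ± 22.1 CPM on LD1 and 10.7 ± 11.7 on LD3 (SD, n = 3). AT4G27370, listed as VIIIB and annotated as a nucleoside triphosphate hydrolase of the P-loop class, also had 0 reads in each LD0 library. It had 6, 18 and 23 reads in LD1 and 0, 0 and 50 in LD3, where the 50 reads of the deepest library amount to 5.62 CPM. Fitted log2 values against a group with no read depend on the prior count and are not given for either locus. In mean CPM, LD1 was 10.2 times the mean of the 6 other libraries for AT1G63840 and 43.0 times for VIIIB.

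The other peaks without overlap had higher levels in the comparison groups. cpHsc70-2, a chaperone of the chloroplast stroma, had 152, 109 and 407 CPM in LD1 A, B and C and between 8.97 and 57.5 CPM in the 6 others (log2 change 2.73, SE 0.71, unadjusted p = 0.00264). AT2G44040, annotated as dihydrodipicolinate reductase, an enzyme of lysine synthesis, had 270, 139 and 162 CPM on LD1 and between 17.9 and 109 in the others (log2 change 2.24, SE 0.62, unadjusted p = 0.00400). Here the LD3 mean of 74.2 CPM lay between the means of LD0 (23.4) and LD1 (191). AT5G54780, a Rab-GAP protein of vesicle traffic, had 395, 235 and 114 CPM on LD1 and between 0 and 72.7 in the others (log2 change 3.80, SE 1.07, unadjusted p = 0.00419).

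A further 3 loci passed on both sides, although their LD1 libraries overlapped the others. AT1G25550, a Myb-like transcription factor, had 79.0, 26.8 and 2137 CPM in LD1 A, B and C, against 8.97, 0 and 0 in LD0 and 0, 11.1 and 72.7 in LD3. AT5G48650, a protein with an NTF2 domain and an RNA recognition motif, had 257, 33.5 and 1146 CPM in LD1, and 46.8 CPM in LD3 A exceeded its LD1 B. For AT4G37090, annotated as a ligase of peptidoglycan precursors, a kind of enzyme best known from bacteria, LD1 had 277, 173 and 1080 CPM and LD3 C 233. In each of these 3 loci LD1 C was the highest of all libraries. Log2 changes were 6.57 (SE 1.57), 3.93 (SE 0.95) and 1.70 (SE 0.49).

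**Figure D2:**
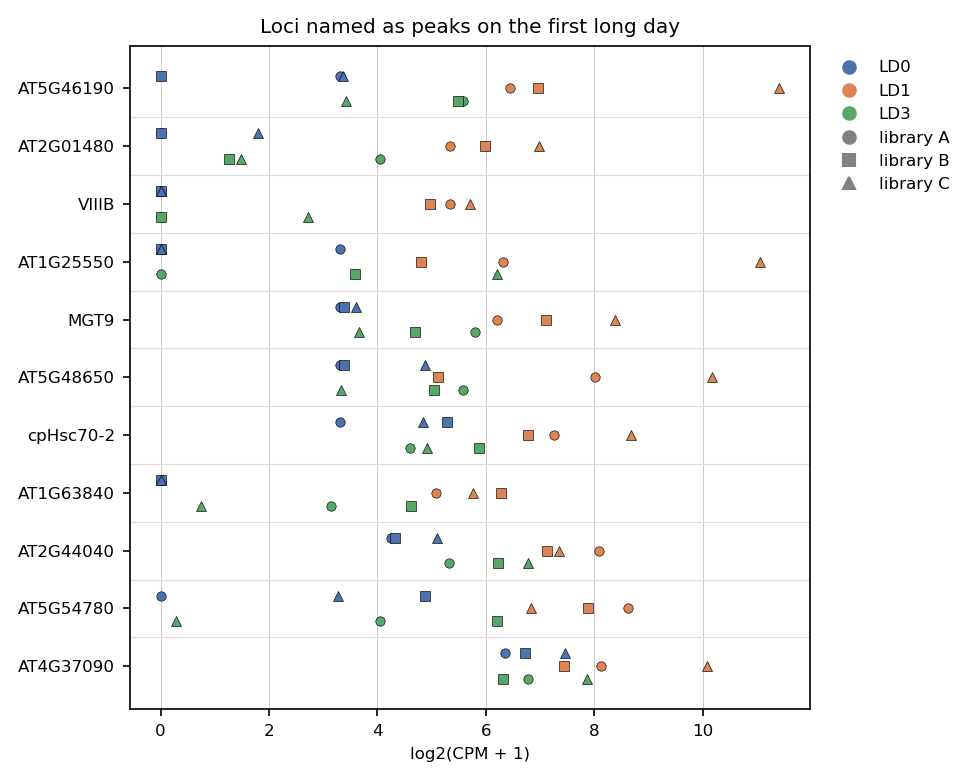
Level of the 11 loci named as peaks in each of the 9 libraries, as log2(CPM + 1) on the horizontal axis, with colours for time points and marker shapes for libraries A, B and C. LD1 libraries (orange) lie to the right, and LD1 C (orange triangle) is the highest of the 9 libraries in 8 of the 11 loci.

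Among the dips, AT1G12120, a protein with no assigned function, had 13.2, 8.38 and 8.90 CPM in LD1 A, B and C, which are 2, 5 and 4 reads. It had 35.9, 152 and 436 CPM in LD0 and 23.4, 24.9 and 232 in LD3. All LD1 libraries were below all others, though LD3 A held only 3 reads. The log2 change was -3.14 (SE 0.96, unadjusted p = 0.00729).

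SYP52, a syntaxin of the endosomal and vacuolar membranes, had 6.59, 5.03 and 4.45 CPM on LD1, where these are 1, 3 and 2 reads, and between 7.31 and 190 CPM in the others. MKP1, a phosphatase that switches off MAP kinases, had 26.4, 15.1 and 0 CPM on LD1 and between 32.6 and 108 in the others. Its groups LD0 and LD3 were alike in mean, 76.8 ± 30.4 and 72.8 ± 35.9 CPM (SD, n = 3), and its log2 changes were -3.05 against LD0 and -2.82 against LD3. For MKP1, LD3 minus LD0 was -0.23 (SE 0.95), so the level was low on LD1 with similar means before and after.

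CER3, an enzyme of cuticular wax synthesis in the epidermis, had 19.8, 10.1 and 4.45 CPM on LD1 and between 27.0 and 171 in the others (log2 change -2.63, SE 1.03, unadjusted p = 0.0265). The list of other epidermal markers had a median log2 change of -0.01 over 8 tested members, of which 4 were positive. RABA4a, a Rab GTPase of secretory vesicles, had 13.2, 11.7 and 2.23 CPM on LD1 and between 21.5 and 126 in the others. Tic20-II, a homologue of a protein of the chloroplast inner envelope, had 19.8, 33.5 and 13.4 CPM and between 49.2 and 191 in the others. The gap was narrow in both, with LD1 A next to LD3 B and C for RABA4a and LD1 B next to LD3 B for Tic20-II.

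AT1G02080, annotated as a transcription regulator, had 19.8, 36.9 and 24.5 CPM on LD1 and between 39.0 and 343 in the others. AT4G14270, annotated as a protein that interacts with polyadenylate-binding protein, had the most reads of the dips, with 22, 59 and 30 on LD1. These are 145, 98.9 and 66.8 CPM, against a range of 166 to 681 in the others, so that LD1 A and LD3 B (166) were close. Its log2 change of -1.52 (SE 0.62) was the smallest of the 8 dips without overlap.

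STP4, a hexose/proton symporter that brings sugar into sink cells, had the smallest p among the loci named here. It had 0, 0 and 1 read in LD1 A, B and C, 5, 3 and 1679 in LD0 and 0, 3 and 482 in LD3. LD3 A also had no read, so the groups overlapped, and the libraries C of LD0 and LD3 held most of its reads. The log2 change was -6.67 (SE 1.18, unadjusted p = 0.000131). In pooled reads its share in LD0 and LD3 was 225 times that on LD1, with an exact 95% interval of 40.4 to 8907. STP4 was also among the loci called by DESeq2 (log2 change -5.07, adjusted p = 0.0348).

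AT2G44770, a protein of the ELMO/CED-12 family, had 1 read on LD1, in library B, and between 2 and 159 reads in each other library. Its pooled share outside LD1 was 36.8 times that on LD1 (exact 95% interval 6.57 to 1459). The remaining dips, 4 in number, had no read in any LD1 library, and for these the lower limit of the exact 95% interval of the pooled share outside LD1 over that on LD1 is given. LHT1, which takes up amino acids, had 28.5 to 53.8 CPM in LD0 and 4.05 to 32.6 in LD3, with a lower limit of 4.67. ATHM3, a plastid thioredoxin known to affect transport through plasmodesmata in the meristem, had 9.50 to 17.9 CPM in LD0 and 13.2 to 31.2 in LD3, with a lower limit of 7.97. ATHM3 and LHT1 had reads in all 6 other libraries, and from 1 to 6 reads in the shallow ones. For rps15ab, annotated as a ribosomal protein S15A, the limit was 87.2, and for AT2G46250, a myosin-heavy-chain-like protein, 11.6. Both had no read in LD0 A either. LD3 C held 2992 of the 3100 reads of rps15ab outside LD1 and 312 of the 414 of AT2G46250, so both limits rest mostly on that library.

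**Figure D3:**
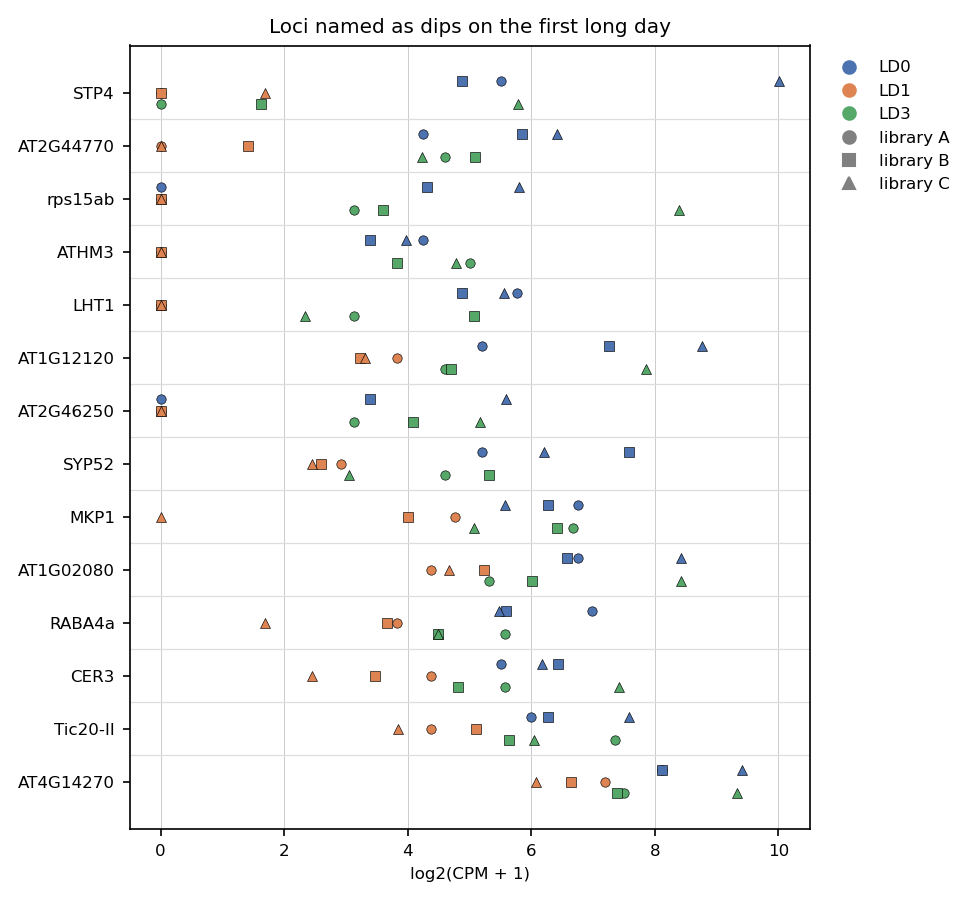
Level of the 14 loci named as dips in each of the 9 libraries, as log2(CPM + 1) on the horizontal axis, with colours and shapes as for the peaks. LD1 libraries (orange) lie to the left, at 0 in all 3 for rps15ab, ATHM3, LHT1 and AT2G46250, and the LD3 libraries A and B often lie close to them.

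Among the floral pathway genes, SOC1 had 329, 210 and 97.9 CPM in LD1 A, B and C, 0, 9.50 and 8.01 in LD0 and 234, 209 and 186 in LD3. The LD1 and LD3 libraries overlapped and both were above all LD0 libraries. Its log2 change in the comparison was 2.36 (SE 0.67, unadjusted p = 0.00430), but LD1 differed from LD3 by only -0.06 (SE 0.74, unadjusted p = 0.941). SOC1 therefore entered the 420 loci through LD0 alone and was no peak. Pooled over reads, its share on LD1 was 1.05 times that of the other groups (exact 95% interval 0.913 to 1.21). Of the 2002 pooled reads outside LD1, 1656 were in LD3 C, so this ratio sets LD1 mostly against that library. In mean CPM, LD1 was 1.97 times the mean of the 6 other libraries.

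FT transcripts were found on LD1 in an uneven way. LD1 A had 232 reads (1528 CPM), LD1 B 12 (20.12 CPM) and LD1 C 0. The LD0 libraries had 4, 0 and 7 reads and those of LD3 1, 2 and 249, where the 249 reads of the deepest library are 28.0 CPM. The log2 change was 4.86 (SE 2.21, unadjusted p = 0.0494), and without LD1 A it was -0.48. FT as a peak was therefore a value of 1 library. LD1 A also differed from LD0 A and LD3 A in aligner version and in having more than a single read column. The part of this in its FT reads was not tested.

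The same library held the reads of CO, the activator of FT, and of CCA1, a morning gene of the circadian clock. CO had 34 reads in LD1 A, 0 in LD1 B and C, 3 in LD0 A and 1 in LD3 A, and none in the other 4 libraries. CCA1 had 31 reads in LD1 A against 0 and 1 in LD1 B and C and at most 14 in any other library. Neither had enough reads over the groups to be tested. LHY, a partner of CCA1, had 3, 1 and 9 reads on LD1. Scaled for depth, LD1 A (19.8 CPM) was level with LD1 C and above LD1 B (1.68 CPM). It was also above all LD0 and LD3 libraries, of which LD3 B was the highest at 14.5 CPM. The value of LD1 A rests on 3 reads, the limit used here, so whether LHY shared the high value of that library cannot be told.

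FT and CO are known from the phloem companion cells of leaves, so markers of vascular and leaf tissue are set beside them. SUC2 and APL, which define companion cells and phloem, had 0 reads in LD1 A, whereas LD1 B had 314 and 64. SWEET11 had 0 reads in LD1 A and 70 in LD1 B. The 16 vascular markers, of which 12 are in the table and 3 were tested, made up 0.0346% of the reads of LD1 A (exact 95% interval 0.0250 to 0.0466), within the range of 0.00314% to 0.0844% of the 6 LD0 and LD3 libraries. All 43 of these reads in LD1 A came from GLDP1, which is also on the mesophyll list. Leaf mesophyll markers made up 0.187% of LD1 A (0.164 to 0.213), the highest of the 9 libraries, next to 0.173% in LD3 A (0.148 to 0.20), where FT had 1 read and CO 1. SUC2 and APL were thus at 0 in the library with the FT reads, and the part of leaf tissue in its FT level was not tested.

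Apart from GA20OX2 and RGL1, given below with the gibberellin genes, the other genes of the panel had an unadjusted p over 0.05 or too few reads to be tested. GI, which links the clock to CO, had 65.9, 20.12 and 216 CPM on LD1 and between 1.91 and 54.6 in the others (log2 change 2.19, SE 1.14, unadjusted p = 0.0798). FD had 360 ± 146 CPM on LD1, 190 ± 137 in LD0 and 368 ± 225 in LD3 (SD, n = 3), a log2 change of 0.68 (SE 0.57). Log2 changes were 0.79 (SE 0.66) for STM, the homeobox gene that keeps meristem cells undifferentiated, 0.33 (SE 0.50) for the floral repressor SVP and -0.88 (SE 0.63) for AGL24, a MADS-box promoter of flowering. CLV3 (0.23, SE 0.49), TOC1 (-0.34, SE 0.84) and TFL1 (0.32, SE 1.58) each took the other sign in at least 1 alternative fit. The genes TSF, AP1, FUL, LFY, FLC and WUS had between 0 and 15 reads in any LD1 library and were not tested.

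**Figure D4:**
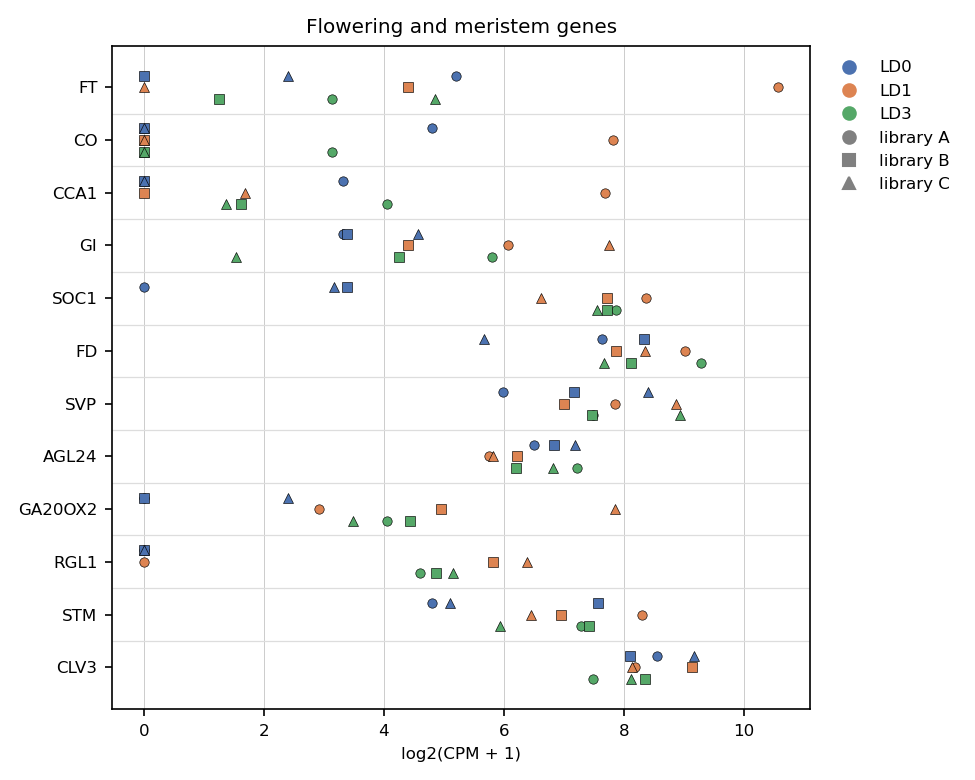
Level of 12 flowering, clock and meristem genes in each library, as log2(CPM + 1), with colours and shapes as before. FT, CO and CCA1 are high in LD1 A (orange circle) alone, whereas the LD1 and LD3 libraries of SOC1 lie together, above those of LD0.

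Of the 24 floral promoters listed, 9 were tested, and 2 of them, SOC1 and FT, had an unadjusted p under 0.05, against 4.52% of all loci. The median log2 change of the 9 was 0.68, and -0.05 without LD1 A. Floral repressors had a median of 0.32 over 8 tested members, with 6 of them positive. MAF2, a relative of FLC that delays flowering, was the member under an unadjusted p of 0.05, with 19.8, 18.4 and 797 CPM in LD1 A, B and C against 8.97, 0 and 139 in LD0 and 7.80, 15.2 and 94.4 in LD3. Within each letter MAF2 was highest on LD1 (log2 change 1.82, SE 0.74, unadjusted p = 0.0302). In letter A this was 3 reads on LD1 against 1 in LD0 and 1 in LD3, and in letter B LD1 and LD3 were close. The C libraries lay above A and B at every time point. limma-voom called MAF2 higher (log2 change 2.45, adjusted p = 0.0356), but its unadjusted p was under 0.05 in only 12 of 18 alternative fits, with a highest p of 0.372.

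Genes of gibberellin, the growth hormone that also promotes flowering, gave 2 loci under an unadjusted p of 0.05 out of 9 tested, against 4.52% of all loci, and a list median of -0.23. GA20OX2, an enzyme of gibberellin synthesis, had 6.59, 30.2 and 232 CPM on LD1, 0, 0 and 4.31 in LD0 and 15.6, 20.8 and 10.2 in LD3. RGL1, a DELLA repressor of gibberellin signalling, had 0, 55.3 and 82.4 CPM on LD1, no read in LD0 and 23.4, 28.4 and 34.7 CPM in LD3. For GA20OX2 the LD1 and LD3 libraries overlapped, with LD1 minus LD3 at 1.34 (SE 1.33, unadjusted p = 0.333). For RGL1 they overlapped as well, at 0.55 (SE 1.32, unadjusted p = 0.684). Against LD0 the unadjusted p was 0.00805 for GA20OX2 and 0.00629 for RGL1.

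Meristem and boundary genes had 15 tested members with a median of 0.34 and 10 positive. Under an unadjusted p of 0.05, against 4.52% of all loci, were 2 of them, AIL6, an AP2-type factor of meristem growth (log2 change 3.78, SE 1.64, unadjusted p = 0.0410), and PNF, a BELL-type homeodomain protein that works with STM (2.14, SE 0.97, unadjusted p = 0.0496). AIL6 had 13.2, 15.1 and 134 CPM on LD1, and its LD3 A had 15.6. PNF had 13.2, 55.3 and 44.5 CPM on LD1 and 23.4, 18.0 and 19.8 in LD3. In both the LD1 and LD3 libraries overlapped. For PNF the unadjusted p was under 0.05 in 6 of 16 alternative fits and for AIL6 in 9 of 11.

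DIN10, a raffinose synthase family gene named for its induction by darkness and sugar shortage, was the one member of the nuclear gene lists that passed on both sides of LD1 in the same direction. It had 85.6, 168 and 327 CPM in LD1 A, B and C, 0, 19 and 44.4 in LD0 and 23.4, 17.3 and 117 in LD3. Within each letter LD1 was the highest, while across letters LD3 C exceeded LD1 A. The log2 change was 2.86 (SE 0.74, unadjusted p = 0.00244), with 3.46 against LD0 and 2.27 against LD3. Its unadjusted p stayed under 0.05 in all 19 alternative fits that tested it. DIN10 was called higher by DESeq2 (log2 change 2.92, adjusted p = 0.0412) and by limma-voom (2.55, adjusted p = 0.0356).

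The other sugar starvation and trehalose genes did not form a peak with it. Of 12 tested, 9 were positive, with a median of 0.41, and the medians within letters A, B and C were 0.53, 1.2 and -0.93. DRM2, a dormancy-associated gene, had an unadjusted p of 0.0450 with 718, 58.7 and 162 CPM on LD1. It had 2717, 228 and 49.9 CPM in LD0 and 7.80, 8.31 and 4.5 in LD3, with LD1 minus LD0 at -1.15 and LD1 minus LD3 at 5.27. For DRM2 the mean on LD1, 313 CPM, lay between those of LD0 (998) and LD3 (6.87), and its unadjusted p was under 0.05 in 7 of 20 alternative fits. The list's median was -0.68 against LD0 and 2.06 against LD3.

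Cytokinin genes had the highest median of the nuclear gene lists other than the pollen markers. The list of 24 held response regulators, receptors and enzymes of this hormone of cell division. Of 13 tested, 11 were positive, against 49.0% of all loci, the median was 0.92, and 0 had an unadjusted p under 0.05. Medians within letters A, B and C were 0.44, 0.76 and 0.92. The members named here were chosen after their values were seen. ARR4, a response regulator that dampens the signal, had a log2 change of 1.06 (SE 0.61), the receptor WOL 1.5 (SE 0.97) and ARR12, a regulator that turns on target genes, 1.54 (SE 1.06). Each was within 2 standard errors of 0, and the list's median was 0.12 with libraries A and B only.

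Genes for photosynthesis stood near the median of all loci, and cytosolic ribosomal proteins somewhat above it. The ribosomal median was above 0 in all 20 alternative fits, from 0.01 to 0.34. Cytosolic ribosomal proteins had 182 tested members, 121 of them positive, a median of 0.24 and 2 under an unadjusted p of 0.05, a smaller share than the 4.52% of all loci. These 2 were RPSAb (log2 change 2.16, SE 0.95, unadjusted p = 0.0424) and AT3G53870, a ribosomal protein S3 (1.17, SE 0.51, unadjusted p = 0.0430). Their list was 0.55 above LD0 and -0.10 from LD3 in median, which is no peak. Nuclear photosynthesis genes had 22 tested members, a median of 0.08 and 2 under the threshold, again to be read against 4.52% of all loci. LHCA1, an antenna protein of photosystem I, had 408, 26.8 and 639 CPM on LD1 and at most 123 in the others, and PSBP-1, of the oxygen-evolving complex, had 191, 98.9 and 5100 CPM on LD1 and 195, 238 and 2734 on LD3. The unadjusted p stayed under 0.05 in 13 of 20 alternative fits for LHCA1, 10 of 20 for PSBP-1, 10 of 19 for RPSAb and 9 of 20 for AT3G53870.

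In the other lists of the nuclear genome, 0 tested members had an unadjusted p under 0.05. For genes of growth, the medians were 0.06 for DNA replication (17 tested), 0.16 for mitosis (19) and 0.03 for histones (35). The circadian clock (16 tested) had a median of 0.10, auxin (7) -0.41 and light response (11) -0.72. Within the light response list the medians within letters A, B and C were -3.31, 0.67 and -0.79. Stress lists varied as much by letter: heat shock (6 tested) had a median of -0.96, cold, drought and abscisic acid (8) 0.14, jasmonate and wounding (5) 0.30, and immediate stress genes (8) -0.15. Heat shock medians were -0.58, 1.17 and -4.23 within A, B and C.

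Marker lists of other tissues gave no member under the threshold either. Leaf mesophyll (9 tested) had a median of 0.09, vasculature (3) 0.69, seed (14) -0.45 and pollen (6) 1.81. The seed median was -3.05 against LD0 and 2.40 against LD3, with LD1 between them, and SESA5, a seed storage albumin, passed an unadjusted p of 0.05 on both sides with -2.32 against LD0 and 2.42 against LD3. One member each was tested for stomata (-1.74) and root (0.09), and 0 for trichomes. All 6 tested pollen genes were positive, and LD1 B carried them. Pollen genes made up 0.994% of LD1 B (exact 95% interval 0.971 to 1.02), 0.0434% of LD1 A and 0.00798% of LD1 C, against 0.00184% to 0.682% in LD0 and LD3. Without LD1 B the median of the pollen list was -3.85.

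**Figure D5:**
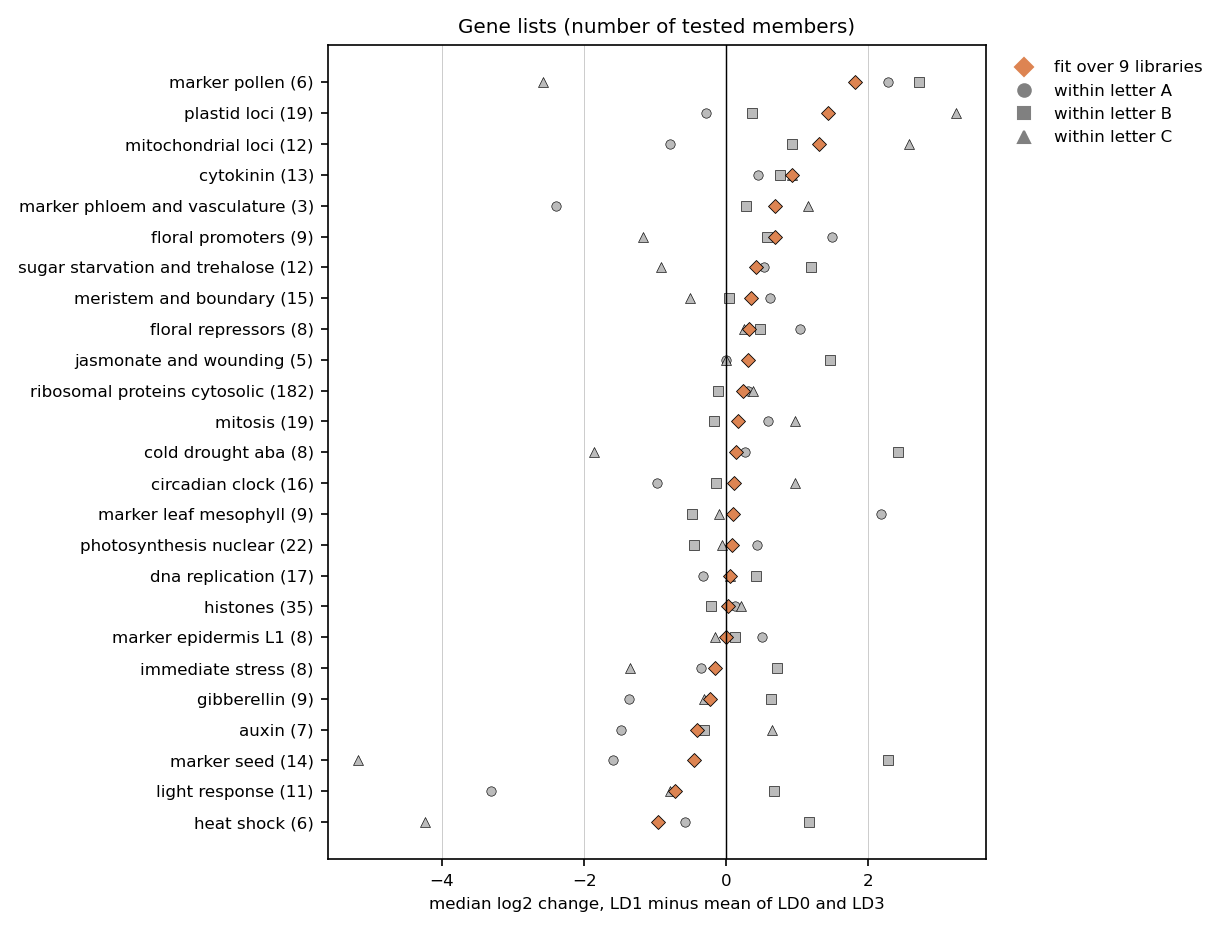
Median log2 change of LD1 from the mean of LD0 and LD3 (horizontal axis) for each gene list with at least 2 tested members and for organelle loci, from the fit over 9 libraries (orange diamonds) and within library letters A, B and C (grey). The median over all loci is -0.03. Points of different letters lie on both sides of 0 for most lists. All 3 lie above 0 for cytokinin (0.44 to 0.92) and for floral repressors (0.25 to 1.04).

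Loci of the organelle genomes were higher on LD1 than elsewhere mainly in library C. Of 12 tested mitochondrial loci, 9 were positive with a median of 1.31, and 4 had an unadjusted p under 0.05, all in the higher direction (background 2.75%). Of 19 tested plastid loci, 17 were positive with a median of 1.44, and 5 had an unadjusted p under 0.05, all higher. Within letters A, B and C the medians were -0.79, 0.93 and 2.58 for mitochondrial loci and -0.29, 0.36 and 3.23 for plastid loci. The medians of letter A were thus below 0, but its shares of reads did not follow them. Mitochondrial loci made up 0.587% of the reads of LD1 A, against 0.518% of LD0 A and 0.334% of LD3 A. Plastid loci made up 0.131% of LD1 A, between 0.202% of LD0 A and 0.0990% of LD3 A. ATMG00830 passed on both sides, with 3, 3 and 144 reads in LD1 A, B and C, 58 in LD0 C and 0 in the other 5 libraries (unadjusted p = 0.0355 against LD0 and 0.000290 against LD3).

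Mitochondrial loci made up 2.76% of the reads of LD1 C (exact 95% interval 2.72 to 2.80), against 0.587% of LD1 A and 0.899% of LD1 B, 0.518% to 0.821% in LD0 and 0.218% to 0.334% in LD3. Of the 19708 mitochondrial reads of LD1 C, ATMG00020 held 9772 and ATMG01390 held 8845. Most of the high share of LD1 C thus lay in these loci. They held most mitochondrial reads in other libraries as well, with 10567 and 3447 of 17808 in LD0 C and 22477 and 2444 of 26401 in LD3 C. ATMG01390 had 2167, 1745 and 19689 CPM on LD1, 1461, 2783 and 2125 in LD0 and 413, 236 and 275 in LD3. Here LD0 and LD1 overlapped and LD3 was the lowest group, with LD1 minus LD0 at 1.24 (SE 0.75) and LD1 minus LD3 at 4.0 (SE 0.80). ATMG01390 was called higher by limma-voom, as was the 18S ribosomal RNA locus that LD1 C held. Both lists came from the genome letter in the locus name and were added after the data were seen.

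Of the 9 fits that left out 1 library, the fit without LD1 C shared the fewest of the 420 loci. In it 8835 loci were tested, 317 had an unadjusted p under 0.05, and 103 of the original 420 (24.5%) were among them. Without LD1 B the number of loci lower on LD1 at an unadjusted p under 0.05 was 596, where it was 164 with all libraries, and without LD1 C it was 76. The number passing on both sides as dips was 293 without LD1 B and 20 without LD1 C. In all 9 fits that left out a library edgeR called 0 loci, and the smallest adjusted p in any of them was 0.266.

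Of the 46 named loci that could be tested, 38 had an unadjusted p under 0.05, and 42 kept the sign of their log2 change in every alternative fit that tested them. The exceptions were FT, CLV3, TOC1 and TFL1. Without LD1 C, 19 of the 38 stayed under an unadjusted p of 0.05.

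The authors' deposited tables hold their own comparisons of LD1 with LD0 and of LD3 with LD1, made with edgeR on unadjusted p. In the authors' deposited table of each comparison, 19312 loci were shared, of which 305 had an unadjusted p under 0.05 on both sides as peaks and 131 as dips. After adjustment computed here over the authors' deposited table, the smallest p-value was 0.405 for LD1 against LD0 and 0.367 for LD3 against LD1. Of the authors' deposited calls, 8 of the 305 peaks and 43 of the 131 dips were among the 26 and 58 found here. For AT5G46190 the authors' deposited table gives a log2 change of 7.03 from LD0 to LD1 and of -4.80 from LD1 to LD3.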

How the data were processed

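Read counts for 9 libraries were deposited by the authors in 16 columns. Per the file headers, 7 columns come from BLASTN 2.2.21 and 9 from BLASTN 2.2.13. LD0 A and LD3 A have a single column each, from BLASTN 2.2.21, whereas LD1 A has read 1 and read 2 columns from BLASTN 2.2.13. In letter A, version and read layout therefore cannot be told apart from the first long day. The B libraries come from BLASTN 2.2.13, and the C libraries from BLASTN 2.2.21 except read 2 of LD3 C. Not given in the sources used here are the sequencer, genome build, match filters and treatment of multiple matches, and for this reason no coordinates or sequences are printed, and overlapping or near-identical genes may share reads. Empty cells (49.0%) were read as 0, and read 1 and read 2 columns of a library were summed, so a fragment can count in both. The authors also deposited pairwise tables with a log2 fold change and an unadjusted p-value per locus; edgeR is named for these in the submitters' processing notes.

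Counts were tested with the quasi-likelihood F test of edgeR 4.0.16 in R 4.3.3 (TMM scaling, filterByExpr with a minimum count of 10, time point and preparation as terms, 5 residual degrees of freedom), with Benjamini-Hochberg adjustment over 9300 loci and a threshold of 0.05. The preparation term sets libraries A and B against C. CPM are summed reads per 1000000 of the TMM-scaled size. No UMIs are described and RNA was amplified, so exact intervals and the limit of 3 reads cover counting error only. limma 3.58.1 (voom) and DESeq2 1.42.0, other scalings, filters and subsets of libraries were tried as alternatives.

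Names come from RefSeq annotation of TAIR10.1, matched by locus for 23073 loci, with ambiguous symbols settled by hand. The 26 gene lists were matched by symbol, and 7 list names matched no locus. Cytosolic ribosomal proteins were taken from the authors' short descriptions. Members and lists were chosen with earlier results of these data known. Named loci are up to 8 per direction with the smallest p among loci whose LD1 libraries do not overlap the others (with at least 3 reads in each library on the higher side), up to 6 per direction past an unadjusted p of 0.05 on both sides by the larger p, up to 4 per list at an unadjusted p under 0.05, and 21 flowering, clock, hormone and meristem genes whatever their result.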

Additional observations from a re-analysis of the deposited data

How the results depend on the processing

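Calls of edgeR at an adjusted p of 0.05 stayed at 0 under all alternatives except the fit with no filter on low counts, which called 40 loci higher and 4 lower. Other tools on the same filter called more, DESeq2 4 higher and 2 lower and limma-voom 29 higher. The cause was not tested.

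Counts at an unadjusted p under 0.05 (256 higher and 164 lower) moved as follows. They were 969 and 380 with no filter, 132 and 68 with a minimum count of 30, 416 and 339 by DESeq2, 874 and 571 by limma-voom, 61 and 26 with libraries A and B only, 160 and 66 with 1 read column per library, and 61 and 19 with libraries thinned to the shallowest. The lower count was 248 under upper-quartile scaling, and the higher count 391 with no preparation term. Upper-quartile scaling moved the median log2 change of all loci by -0.15 and the scaling of DESeq2 by 0.06. Leaving out each library in turn gave 162 to 393 higher and 76 to 596 lower.

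Loci past both sides (26 higher and 58 lower) numbered 154 and 135 with no filter, 320 and 195 by limma-voom, 10 and 8 with A and B only, and 5 and 4 when thinned. The higher count was 87 by DESeq2 and 56 with no preparation term, and the lower count 12 with a minimum count of 30 and 25 with 1 read column. Leaving out a library gave 13 to 77 and 20 to 293. Counts without overlap, an alternative added after the data were seen, were 35 above under upper-quartile scaling, 33 above and 51 below with a minimum count of 30, 119 above with A and B only, 39 below with 1 read column, and 12 above and 17 below when thinned. Leaving out a library gave 80 to 262 above and 133 to 557 below, where fewer libraries make an overlap less likely.

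The cytokinin median (0.92) was 0.57 under upper-quartile scaling, 0.32 with no filter, 0.46 with the replicate block and 0.12 with A and B only. The histone median was -0.22 with A and B only. For jasmonate and wounding it was 1.36 by limma-voom, 1.18 with no preparation term, 1.37 with A and B only and 1.31 with 1 read column. For sugar starvation it was 1.93 with A and B only and 1.80 when thinned. Leaving out each library gave medians of 0.17 to 0.75 for cytokinin, -0.29 to 0.77 for gibberellin, -3.86 to 0.94 for immediate stress, -1.36 to 1.44 for jasmonate, -0.23 to 0.41 for the epidermis, 0.29 to 2.64 for vasculature, -3.85 to 3.32 for pollen and -0.40 to 0.44 for photosynthesis. Medians of mitochondrial and plastid loci stayed above 0 in all 20 alternatives, from 0.38 to 2.1 and from 0.08 to 2.82.

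Among named loci, leaving out each library gave -0.48 (without LD1 A) to 6.69 for FT, -0.24 (without LD1 B) to 0.50 for CLV3, -0.92 to 0.33 (without LD1 C) for TOC1, and -0.65 to 1.71 for TFL1, which was below 0 without LD0 A, LD0 B or LD1 A. CLV3 was also -0.055 when thinned. TOC1 was 0.29 with A and B only and 0.32 with 1 read column, and TFL1 -0.65 by limma-voom and -0.054 with no preparation term.

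Letters were not treated as pairs, because the labels do not tie them to a shared batch and the correlation of deviations between libraries of the same letter was 0.07 to 0.35, under 0.1 for LD0 A with LD1 A. As a hint from the data, 9 of 9 libraries correlated best with their own letter. With the letter as a replicate block, edgeR called 0 loci, with 224 higher and 117 lower at an unadjusted p under 0.05 and 25 and 44 past both sides. In LD0 A, LD0 B, LD1 A and LD3 A the limit of 3 reads was 19.8 to 28.5 CPM, so low levels were not detectable there.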

Other observations

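Without a filter on low counts, edgeR called 44 loci. Of these, 14 had been below the filter, and the rest were also in the filtered test, where none was called. The smallest adjusted p of the unfiltered edgeR fit was that of ATMG01390 (1.18e-09), which the filtered test held. Of the 44 called, 10 had over 90% of their reads in 1 library. The loci named next had been below the filter and were chosen after their values were seen. NIMIN-3, whose product binds the defence regulator NPR1, had 394 reads in LD1 C and 1 in LD3 B. AT1G34520, an acyltransferase of the MBOAT family, had 171 reads in LD1 C and 0 elsewhere. AT5G10625, annotated as similar to a flowering-promoting factor, had 273 reads in LD1 B, 2 in LD0 B and 1 in LD3 B. WRKY33, a transcription factor of defence, had no read on LD1, 452 in LD0 C and 564 in LD3 B.

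A group of loci was high in library B on LD1 and present in library B at the other times. AAP1, an amino acid permease, had 934 reads in LD1 B, 69 in LD0 B and 49 in LD3 B, and 0 in LD1 A. RD26, a NAC factor of the drought response, had 1076, 79 and 69 in the same libraries, 1 in LD3 A and 0 in the other 5. Pollen genes were also highest in LD1 B, where SKS13 had 4054 reads and VGD1, a pectin methylesterase of pollen tubes, 2138. In LD0 B they had 461 and 164 reads, and in LD3 B 638 and 297.

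HDA6 and HEN1 were among the 29 loci called by limma-voom and are named after their values were seen. HDA6, a histone deacetylase, had a log2 change of 2.51 (SE 0.42, adjusted p = 0.0356), and HEN1, which methylates small RNAs, 3.09 (SE 0.43, adjusted p = 0.0234). HDA6 had 5, 6 and 122 reads in LD0 A, B and C, 6, 120 and 404 in LD1 and 2, 58 and 1910 in LD3. The reads of HEN1 were 3, 0 and 60 before induction, 4, 29 and 347 after 1 long day, and 1, 30 and 1010 after 3. In library A both had nearly as many reads in LD0 as in LD1. LD3 C is the deepest library, and mean levels in LD0, LD1 and LD3 were 59.0, 380 and 90.2 CPM for HDA6 and 21.3, 282 and 47.4 CPM for HEN1.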
